A study of Mus musculus with 20 samples.

Results

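The 10 genes described here belong to bacterial and viral sensing and were followed through 10 sorted populations of mouse blood-forming and immune cells. They are 7 Toll-like receptors (Tlr1, Tlr2, Tlr3, Tlr4, Tlr6, Tlr7 and Tlr9), the adaptor Myd88, and Cd14 and Ly96, which present lipopolysaccharide to Tlr4. The genes were taken as a named set, with no cut on their measured values but with earlier results of these data known. Each was read by its brightest probe set among those annotated to it alone. They are 10 of the 18193 genes with a probe set of their own on the Affymetrix Mouse Genome 430 2.0 array. All 10 passed the filter on dim genes, as did 14063 genes in all.

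All cells came from mice of the C57BL/6 background, with no treatment or mutation named, and each population had 2 biological replicates, 20 arrays in all. The populations were KSL cells (the usual name for a fraction rich in blood stem cells), LinNeg cells (without lineage markers), B cells (B220+), CD4T and CD8T cells, NK cells (NK1.1+), NKT cells (CD3ε+ and NK1.1+), Erythroblast (Ter119+), Neutrophil (Gr-1+) and Monocyte (Mac-1+, named monocytes/macrophages). RNA equal to 3000 cells was amplified in 2 cycles for each array. The tissue, age and sex of the mice, the animals behind each replicate and any gate beyond the named markers were not given in the sources used here.

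Toll-like receptors are membrane proteins that bind molecules shared by many microbes. Tlr2 works at the cell surface as a pair with Tlr1 or Tlr6 and recognises bacterial lipopeptides. Tlr4 binds lipopolysaccharide together with Ly96 (also called MD-2), to which Cd14 hands it over. Tlr3, Tlr7 and Tlr9 sit in endosomes and bind double-stranded RNA, single-stranded RNA and DNA with unmethylated CpG. All of these receptors except Tlr3 signal through Myd88, which leads to NF-kB and to inflammatory cytokines. Macrophages, neutrophils and B cells are known for such receptors, and resting T cells for few of them.

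Promoter sequences show what lies at the start sites of genes whose patterns agreed or parted in these arrays. RefSeq windows of 300 bases (250 before the start site and 50 after it, build GRCm38.p6) were used for 6 of the 10 genes, with 8 start sites. The windows of a single chromosome were left out of this search. The 4 windows below are those of Tlr1 and its neighbour on chromosome 5, Tlr6, whose levels parted, and of Tlr2 and Myd88, whose levels ran with those of Tlr6. They are read 5′ to 3′ on the strand of the gene, which is the minus strand in all 4. Capitals mark matches on either strand to GAGGAA (a core bound by PU.1), to GAAANNGAA (bound by interferon regulatory factors) or to the NF-kB consensus.
Tlr1, chr5:64933509-64933808: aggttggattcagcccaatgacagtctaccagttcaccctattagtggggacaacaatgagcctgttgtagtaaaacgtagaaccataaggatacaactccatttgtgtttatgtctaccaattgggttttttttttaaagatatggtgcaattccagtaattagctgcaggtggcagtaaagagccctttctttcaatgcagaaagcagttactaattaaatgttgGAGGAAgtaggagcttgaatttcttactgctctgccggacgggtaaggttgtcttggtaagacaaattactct
Tlr6, chr5:64959117-64959416: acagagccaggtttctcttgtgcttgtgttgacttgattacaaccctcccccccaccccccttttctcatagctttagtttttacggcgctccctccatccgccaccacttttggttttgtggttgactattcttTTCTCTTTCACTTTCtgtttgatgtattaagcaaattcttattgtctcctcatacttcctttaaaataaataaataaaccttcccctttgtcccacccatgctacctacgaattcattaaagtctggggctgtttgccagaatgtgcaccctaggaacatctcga
Tlr2, chr3:83841559-83841858: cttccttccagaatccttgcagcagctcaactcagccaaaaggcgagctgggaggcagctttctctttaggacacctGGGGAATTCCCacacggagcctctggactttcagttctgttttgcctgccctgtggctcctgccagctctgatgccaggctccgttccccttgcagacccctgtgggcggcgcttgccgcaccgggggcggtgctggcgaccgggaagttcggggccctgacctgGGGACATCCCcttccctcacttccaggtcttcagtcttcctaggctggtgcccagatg
Myd88, chr9:119339969-119340268: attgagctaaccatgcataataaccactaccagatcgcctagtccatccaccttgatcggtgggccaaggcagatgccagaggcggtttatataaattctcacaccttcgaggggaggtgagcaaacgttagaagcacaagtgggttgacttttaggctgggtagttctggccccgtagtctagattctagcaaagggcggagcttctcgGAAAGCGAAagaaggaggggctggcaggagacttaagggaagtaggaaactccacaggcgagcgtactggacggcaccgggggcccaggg

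Tlr1 held GAGGAA starting 23 bases before the start site, and its second start site held none of the motifs. Tlr6 held a pair of overlapping GAAANNGAA matches from 115 bases before the start, and its second start site held none. Tlr2 held 2 stretches of the NF-kB consensus, from 173 and 8 bases before the start, the first made of overlapping matches. Myd88 held GAAANNGAA from 40 bases before the start. Of the others, Tlr3 held 1 NF-kB match and Tlr9 held 2 of GAGGAA. Among 32851 windows of the same length, 28.3% held GAGGAA, 8.56% GAAANNGAA and 8.46% the NF-kB consensus, so such matches are common. That background was counted with no chromosome left out. The matches are descriptions of letters, not of bound sites.

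Values below are deposited linear intensities, whose trimmed mean averaged 100.001 over the 20 arrays. Intensities of different probe sets are not on one scale, so levels are compared only within a gene. A difference is given as a log2 difference ± SE of log2(intensity + 6.75), which understates changes of dim genes. It was called when the Benjamini-Hochberg adjusted p of limma over the 14063 genes was under 0.05 and the difference was at least 1. In an F test over the 10 populations, 8 of the 10 genes differed, against 76.8% of all genes tested, so this share is close to the background. Tlr3 (adjusted p = 0.167) and Tlr9 (adjusted p = 0.606) did not pass. With 2 arrays a population, precision is limited by their number. The p-values use a spread per gene that was pooled over the 10 populations and drawn toward a trend over genes. They do not measure the spread within the populations compared. For Tlr1 the SD of log2 values was 0.0106 in B and 0.700 in NKT, yet its SE was the same in every contrast of 2 populations.

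**Figure D1:**
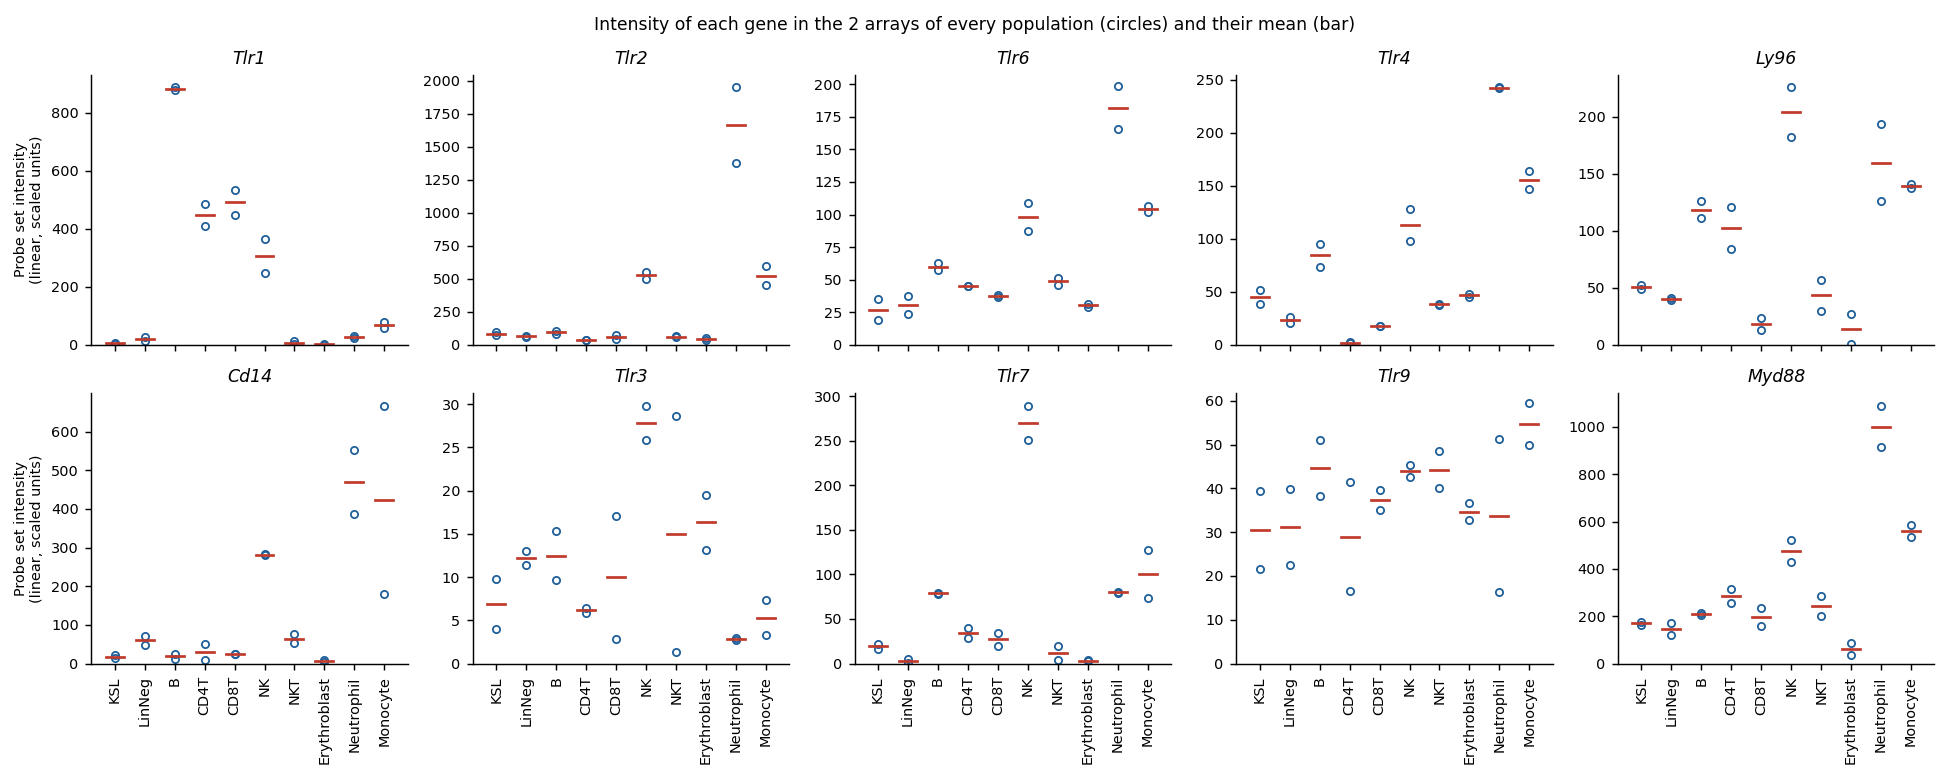
Intensity of each of the 10 genes (vertical axes, linear and starting at 0, 1 scale per gene) in both arrays of the 10 populations (circles) with their mean (bar). Tlr1 stands highest in B cells, Tlr2, Tlr6, Tlr4, Cd14 and Myd88 in neutrophils, Ly96, Tlr3 and Tlr7 in NK cells, and Tlr9 shows no population apart from the rest.

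The sorted fractions were first set against lists of cell type markers, because many of these genes are typical of phagocytes. The NK arrays, whose NK list summed to 13219 and 13217, also carried the list of monocyte and macrophage genes. Its 9 measured genes summed to 33212 and 28832 there, against 18527 and 23610 in Monocyte and 18138 and 14409 in Neutrophil. In NK all 9 lay above an intensity of 100, with Adgre1 (F4/80, of macrophages) at 1368 to 1481. Of 10 neutrophil genes 7 were above 100 in NK, with sums of 18423 and 14168, while Cxcr2 was at 1.85 to 3.28. Of 9 dendritic cell genes 5 were above 100 in NK, with Itgax (CD11c) at 876 to 1145 and Siglech (of plasmacytoid cells) at 2.83 to 24.3.

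The Monocyte arrays carried the neutrophil list at 92944 and 76820, near the 119673 and 100176 of Neutrophil, with 10 of 10 genes above 100 in both. NKT replicate 2 summed to 2474 for the neutrophil list and replicate 1 to 492. LinNeg replicate 2 summed to 3033 and replicate 1 to 144. In B cells the neutrophil list summed to 271 and 172 and the monocyte list to 426 and 487. The part that other cells had in the values of these genes was not tested, and in bulk RNA fewer cells of a type cannot be told apart from less RNA per cell.

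**Figure D2:**
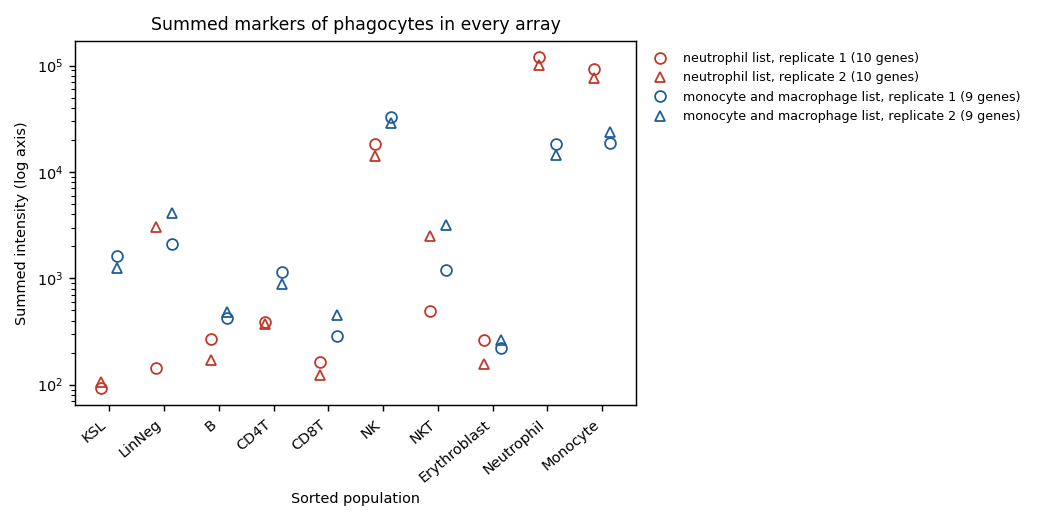
Summed intensity (log axis) of 10 neutrophil genes (red) and 9 monocyte and macrophage genes (blue) in replicate 1 (circles) and replicate 2 (triangles) of each population. The NK arrays lie at 28832 and above for the monocyte list, over those of Monocyte, and LinNeg and NKT show replicate 2 above replicate 1 for the neutrophil list.

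Among the surface receptors, Tlr2 was a gene of the myeloid fractions and of the NK arrays. Its intensity was 1950 and 1376 in Neutrophil, 501 and 549 in NK, and 449 and 595 in Monocyte. In the other 7 populations it ran from 34.1 to 103, the highest being B with 103 and 84.9 and the lowest CD4T with 36.4 and 34.1. KSL had 73.1 and 92.9, LinNeg 60.5 and 66.7, NKT 56.4 and 67.0, CD8T 70.5 and 40.2, and Erythroblast 37.9 and 52.9. The arrays of Neutrophil lay above all others, those of NK and Monocyte overlapped, and a 5.57-fold step separated Monocyte from B. Monocyte was below Neutrophil by a log2 difference of -1.65 ± 0.27 (adjusted p = 0.000247).

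Tlr6, a partner of Tlr2, had the same 3 populations at the top, with smaller steps. It measured 199 and 166 in Neutrophil, 102 and 107 in Monocyte, and 87.0 and 109 in NK. B had 62.7 and 57.1, NKT 46.1 and 51.3, CD4T 44.9 and 45.0, and CD8T 36.3 and 38.4. LinNeg had 23.5 and 37.5, Erythroblast 31.4 and 29.2, and KSL 19.0 and 34.8. The arrays of LinNeg, Erythroblast and KSL overlapped, as did those of Monocyte and NK. The Monocyte to Neutrophil difference of -0.76 ± 0.30 was not called (adjusted p = 0.0917).

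Tlr1, the other partner of Tlr2, followed another order. Its highest values were 878 and 887 in B, then 532 and 448 in CD8T, 410.2 and 487 in CD4T, and 363 and 247 in NK. The phagocytes were far lower, with 56.8 and 76.8 in Monocyte and 30.4 and 24.7 in Neutrophil. LinNeg had 12.3 and 25.9, NKT 12.3 and 2.82, KSL 4.94 and 3.80, and Erythroblast 1.35 and 0.834. B lay above all other arrays, CD8T and CD4T overlapped, and a 4.57-fold step separated NK from Monocyte. Neutrophil thus held 3.12% of the level in B for Tlr1, while B held 5.64% of the level in Neutrophil for Tlr2.

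The place of NKT was the sharpest break in Tlr1. NKT cells are T cells, and their T cell list summed to 8469 and 8672, yet their 2 Tlr1 values lay below all of those of CD4T and CD8T. The log2 difference of NKT from the mean of CD4T and CD8T was -5.14 ± 0.30 (adjusted p = 6e-09). This contrast was added after the values were seen. It called 2 of the 10 genes, against 3.36% of all genes tested. The other was Tlr4, with a log2 difference of 1.61 ± 0.25 (adjusted p = 0.000624), which fell to 0.24 (adjusted p = 0.733) when all 4 Tlr4 probe sets were averaged.

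The receptor for lipopolysaccharide, Tlr4, was highest in Neutrophil with 243 and 242, followed by Monocyte with 147 and 164 and NK with 97.6 and 128. B had 73.2 and 95.4, Erythroblast 45.4 and 47.6, KSL 38.4 and 51.3, and NKT 37.6 and 38.5. LinNeg had 20.7 and 26.2, CD8T 17.9 and 18.0, and CD4T 1.27 and 2.77. The 4 highest populations did not overlap one another, and conventional T cells were lowest. A second probe set also put Neutrophil first (217.9), then Monocyte (150.7), NK (109.9) and B (60.18). It correlated with the one used at r = 0.866 over the 10 population means, but read Erythroblast at 4.019 and CD8T at 3.449, so the level in Erythroblast depends on the probe set. The dimmest probe set ran the other way (r = -0.689) at means of at most 11.91.

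Ly96, the lipopolysaccharide-binding partner of Tlr4, was spread more evenly. NK had 226 and 182, Neutrophil 193 and 126, and Monocyte 141 and 137. B followed with 111 and 126 and CD4T with 121 and 84.0. KSL had 49.3 and 52.4, NKT 57.1 and 29.7, LinNeg 41.3 and 39.2, CD8T 23.1 and 13.2, and Erythroblast 27.1 and 0.992. NK overlapped Neutrophil and B overlapped CD4T. CD4T was high in Ly96 and, by the brightest Tlr4 probe set, lowest in Tlr4, so receptor and partner parted in that reading. A second Tlr4 probe set read CD4T at 7.286, above CD8T (3.449) and Erythroblast (4.019), and in the dimmest CD4T was highest (11.91).

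Cd14, the co-receptor that passes lipopolysaccharide to the complex, measured 386 and 553 in Neutrophil. Monocyte had 179.8 and 666 and NK 280.4 and 283. NKT had 52.1 and 76.0, LinNeg 72.2 and 48.9, CD4T 9.14 and 51.5, and CD8T 23.9 and 25.7. B had 25.9 and 11.8, KSL 15.2 and 20.8, and Erythroblast 3.68 and 8.26. Neutrophil, Monocyte and NK overlapped in a chain, and a 4.40-fold step separated them from the rest. B cells held 34.8% of the Neutrophil level for Tlr4 and 58.2% of the NK level for Ly96, but 4.01% of the Neutrophil level for Cd14.

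Of the endosomal receptors, Tlr7 was highest in NK with 289 and 251. Monocyte followed with 73.1 and 127, Neutrophil with 79.5 and 80.6, and B with 77.6 and 79.6. CD4T had 29.2 and 39.8, CD8T 20.01 and 34.3, KSL 22.0 and 16.4, and NKT 3.76 and 19.3. Erythroblast had 4.24 and 2.34 and LinNeg 1.12 and 4.54. NK stood apart from all others, and Monocyte, Neutrophil and B overlapped. All 3 probe sets of Tlr7 had their highest mean in NK, but in 1 of the dimmer ones NK (74.76) was close to Neutrophil (70.69), so the size of the gap belongs to the brightest. The NK arrays that hold this maximum are those that also carry the macrophage and dendritic cell genes named above; their part in it was not tested.

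Tlr3 was dim throughout. NK had 29.8 and 25.8, Erythroblast 19.5 and 13.2, NKT 1.31 and 28.6, and B 9.66 and 15.3. The arrays of the other 6 populations ran from 2.72 in Neutrophil to 17.1 in CD8T. The other probe set of Tlr3 correlated with the one used at r = -0.022 over the population means. Tlr9 ran from 16.3 to 59.5 over the 20 arrays. Monocyte had 50.0 and 59.5, B 51.1 and 38.4, and Neutrophil 16.3 and 51.2. Of its 9 neighbouring pairs of populations, 1 did not overlap, so the array gave no order for Tlr9.

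Myd88, the shared adaptor, lay above an intensity of 100 in every array except those of Erythroblast. Neutrophil had 1089 and 914, Monocyte 584 and 534, and NK 523 and 428. CD4T had 315 and 256, NKT 284 and 199.6, B 212 and 204, and CD8T 161 and 233. KSL had 164 and 176, LinNeg 170.3 and 119, and Erythroblast 87.8 and 36.4. The 3 highest populations did not overlap, those from CD4T to LinNeg formed a chain of overlaps, and Erythroblast lay below all. Against its own highest population, Myd88 kept 14.4% in LinNeg and 6.20% in Erythroblast, while Tlr1 kept 2.16% of its level in B in LinNeg. No such share is given for Tlr1 in Erythroblast, where both values lay below 6.75, the 25th percentile of all intensities.

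**Figure D3:**
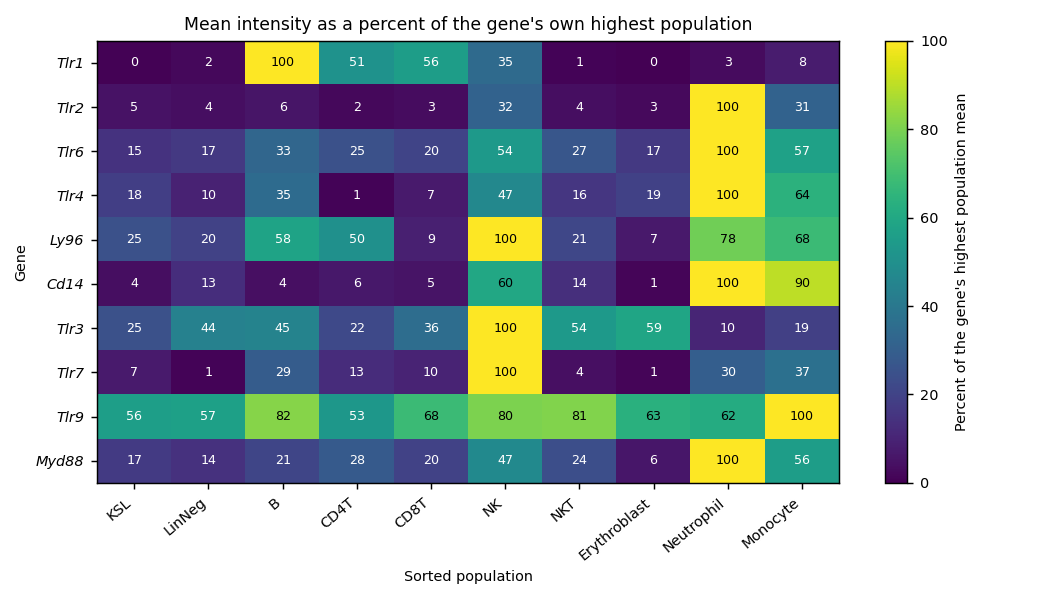
Mean intensity of each gene (rows) in each population (columns) as a percent of the gene's own highest population mean, rounded to whole percents and coloured from 0 to 100. Tlr2, Tlr6, Tlr4, Cd14 and Myd88 reach 100 in Neutrophil, and the row of Tlr1 is at 3 there and at 100 in B.

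The patterns were compared by Pearson correlations of log2 values over the 10 population means, as descriptions of points that share arrays. Tlr2 and Tlr6 correlated at 0.918, Tlr6 and Myd88 at 0.903, Tlr2 and Cd14 at 0.902, and Cd14 and Myd88 at 0.886. Tlr1 correlated with Tlr2 at 0.021 and with Tlr6 at 0.241, and its highest value among the 10 genes was 0.611, with Tlr7. By its brightest probe set, Tlr4 correlated with Tlr2 at 0.861 and with its partner Ly96 at 0.479. Ly96 was closer to Tlr7 at 0.846. The second Tlr4 probe set read Erythroblast at 4.019 in place of 46.49 and CD4T at 7.286 in place of 2.02. Its correlation with Ly96 was not computed, so the low value for this pair belongs to the brightest probe set. Tlr2 thus ran with 1 of its partners and not with the other.

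Among all genes tested, those most like Tlr2 were Pfkfb4 (r = 0.982), Nkiras2 and Atp6v1b2, each highest in Neutrophil. Tlr6 was nearest to Slc15a3 (0.972), Brk1 and Tmcc1, and Myd88 to Prr13 (0.981), Plekhg3 and Sem1. Cd14 was nearest to Fcgr3 (0.986), an Fc receptor of phagocytes and NK cells, then Ctbs and Chil3. Tlr4 was nearest to Stx7 (0.934), Rp2 and Tdrd7. Ly96 was nearest to Casp1 (0.947), the enzyme that matures interleukin-1β, then Pcnx and Ptprj, all highest in NK. Tlr7 was nearest to Sdccag8 (0.950), Susd3 and Fshr. Tlr1 had weaker matches, with Fam209 (0.898), Ccdc130 and Lamtor5. Tlr3 (Slc46a3, Cmya5, Ptar1) and Tlr9 (Ccdc114, Nr1h3, Crip3) have no pattern beyond their spread, so their nearest genes say little.

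Myeloid and lymphoid populations were compared as the mean of Neutrophil and Monocyte against the mean of B, CD4T, CD8T, NK and NKT. Of the 10 genes 5 were higher and 1 was lower, 6 in all, against 29.7% of all genes called in this contrast. Tlr2 was higher by 3.24 ± 0.16 (adjusted p = 2.12e-12), Cd14 by 2.91 ± 0.32 (adjusted p = 2.33e-07), and Tlr4 by 2.32 ± 0.17 (adjusted p = 7.34e-10). Myd88 was higher by 1.47 ± 0.17 (adjusted p = 4.98e-07) and Tlr6 by 1.23 ± 0.18 (adjusted p = 7.87e-06). Tlr1 was lower, with a log2 difference of -2.28 ± 0.20 (adjusted p = 1.13e-08). NKT was an exception among the lymphoid populations, with a mean Tlr1 intensity of 7.54 against 27.6 in Neutrophil and 66.8 in Monocyte. The median of the 10 differences was 1.09, against -0.11 over all genes tested.

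Ly96 (0.94 ± 0.28) and Tlr7 (0.77 ± 0.25) had adjusted p of 0.0081 and 0.0125 but differences under 1. Because the NK arrays carry phagocyte genes, the comparison was repeated without them, which called 7 genes higher and 1 lower. The share of all genes called in that repeat was not computed, so this count has no background beside it. Tlr2 then differed by 3.85 and Tlr1 by -2.19. The 6 genes called with the NK arrays were all called without them. For Tlr2, Tlr6, Tlr4, Cd14 and Myd88, NK was the highest lymphoid population. Leaving it out could only widen those differences, so the repeat is no check on them.

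**Figure D4:**
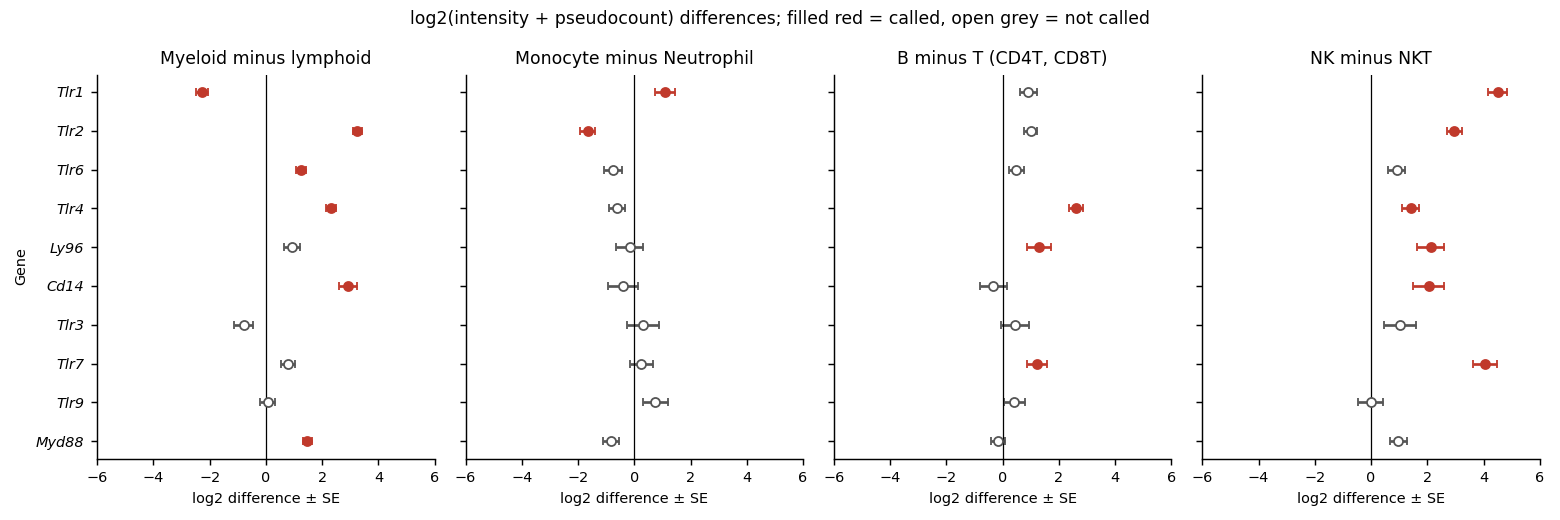
Log2 difference (horizontal axis) of each gene in 4 contrasts, with bars of 1 SE; filled red points were called and open grey points were not. Tlr1 is the 1 called point left of 0 in myeloid against lymphoid cells, and all 6 called points of NK against NKT lie right of 0.

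Between Monocyte and Neutrophil, 2 of the 10 genes were called, 1 each way, against 12.2% of all genes. Tlr2 was lower in Monocyte, as given above. Tlr1 was higher by 1.09 ± 0.35 (adjusted p = 0.0322). This call was lost without Neutrophil replicate 1 (1.21, adjusted p = 0.0788), Neutrophil replicate 2 (0.97, adjusted p = 0.139) or Monocyte replicate 2 (0.89, adjusted p = 0.203). Myd88 was 559 in Monocyte and 1002 in Neutrophil on average, with a difference of -0.83 ± 0.29 that was not called (adjusted p = 0.0547). Both fractions carried the neutrophil list, at the sums given above, and its part was not tested.

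Monocyte and B cells differed in 4 of the 10 genes, 3 higher and 1 lower, against 27.6% of all genes. Cd14 was higher in Monocyte by 3.85 ± 0.55 (adjusted p = 1.37e-05), Tlr2 by 2.39 ± 0.27 (adjusted p = 8e-07) and Myd88 by 1.40 ± 0.29 (adjusted p = 0.000814). Tlr1 differed by -3.61 ± 0.35 (adjusted p = 9.2e-08). Ly96, Tlr7 and Tlr9 had differences of 0.22 ± 0.48, 0.28 ± 0.42 and 0.26 ± 0.44, none of them called.

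B cells against the mean of CD4T and CD8T gave 3 of 10 genes, all higher in B, against 13.0% of all genes. Tlr4 was higher in B by 2.62 ± 0.25 (adjusted p = 1.72e-07). Ly96 was higher by 1.29 ± 0.41 (adjusted p = 0.0341) and Tlr7 by 1.21 ± 0.36 (adjusted p = 0.0223). Both of these calls were lost with the pseudocount at the 5th percentile and at the median, and that of Ly96 also without a mean-variance trend. The Tlr7 call was lost when all probe sets were averaged (0.52, adjusted p = 0.218), and in 1 of its other probe sets CD4T (31.76) lay above B (29.51). Tlr2 (0.99 ± 0.23, adjusted p = 0.00399) and Tlr1 (0.91 ± 0.30, adjusted p = 0.0386) fell just under a difference of 1, and both were called when arrays were centred on their medians, which gave 5 calls. Without B replicate 1 only Tlr4 was called. The calls of Ly96 (adjusted p = 0.126) and Tlr7 (0.117) were lost then, and also without B replicate 2 (0.194 and 0.125). Ly96 was also lost without CD4T replicate 2 (0.0965) or CD8T replicate 2 (0.0958), and Tlr7 without CD4T replicate 1 (0.0614) or CD8T replicate 1 (0.0747).

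The conventional T cells differed in 2 of 10 genes, against 3.21% of all genes. Ly96 was higher in CD4T by 2.14 ± 0.48 (adjusted p = 0.0124), and Tlr4 was lower there by a difference of -1.50 ± 0.29 (adjusted p = 0.00469). Neither was called without CD4T replicate 1 (adjusted p = 0.14 and 0.0579), and Ly96 was not without CD8T replicate 2 (0.127). For Tlr4 the mean of all probe sets gave -0.27 (adjusted p = 0.751), so this difference rests on the brightest probe set, at intensities of 18.0 and below. Its direction does too, since the second probe set read 7.286 in CD4T and 3.449 in CD8T and the dimmest 11.91 and 8.689. Tlr1 did not differ between them beyond its error (-0.13 ± 0.35).

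NK against NKT, the NK1.1+ populations, gave 6 of 10 genes higher and 0 lower, against 11.3% of all genes. Tlr1 was higher in NK by 4.51 ± 0.35 (adjusted p = 2.74e-08) and Tlr7 by 4.06 ± 0.42 (adjusted p = 9.84e-07). Tlr2 was higher by 2.96 ± 0.27 (adjusted p = 2.18e-07) and Tlr4 by 1.41 ± 0.29 (adjusted p = 0.00201). Ly96 was higher by 2.12 ± 0.48 (adjusted p = 0.00402) and Cd14 by 2.05 ± 0.55 (adjusted p = 0.0134). The Ly96 call was lost without NKT replicate 2 (1.71, adjusted p = 0.0671). The Cd14 call was lost without NK replicate 1 (0.0746), NK replicate 2 (0.0737) or NKT replicate 1 (0.111). The monocyte and macrophage list was 33212 and 28832 in NK against 1199 and 3162 in NKT, and its part in these differences was not tested.

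Monocyte against NK gave 3 of 10 genes, all lower in Monocyte, against 19.6% of all genes. The Tlr1 difference was -2.07 ± 0.35 (adjusted p = 0.000148) and that of Tlr7 -1.42 ± 0.42 (adjusted p = 0.0159). The third was Tlr3, which passed the filter on low values through NK alone, so its call is no support for a difference. Its other probe set ran the opposite way, at 15.62 in Monocyte and 9.815 in NK, and without the filter it was not called (adjusted p = 0.0549). Tlr2 differed by -0.02 ± 0.27, Tlr6 by 0.09 ± 0.30 and Cd14 by 0.30 ± 0.55, none called. Tlr3 and Tlr7 were not called without NK replicate 1 (adjusted p = 0.178 and 0.101), NK replicate 2 (0.126 and 0.056) or Monocyte replicate 1 (0.239 and 0.181). Tlr3 was not called without Monocyte replicate 2 either (0.0725). With all probe sets averaged the Tlr7 difference was -0.98 (adjusted p = 0.0267), under the size needed for a call.

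Among progenitors, KSL against LinNeg called 2 of 10 genes, against 5.53% of all genes. Tlr7 was higher in KSL by 1.45 ± 0.42 (adjusted p = 0.0367) and Tlr1 lower by a difference of -1.16 ± 0.35 (adjusted p = 0.0419). Both are dim in these cells, at 25.9 and below. Leaving out KSL replicate 1 (adjusted p = 0.174 for Tlr7 and 0.106 for Tlr1), KSL replicate 2 (0.124 and 0.227) or LinNeg replicate 2 (0.0579 and 0.32) ended both calls, and leaving out LinNeg replicate 1 ended that of Tlr7 (0.287). Averaging all probe sets also ended the Tlr7 call (0.54, adjusted p = 0.366). For Tlr1 the estimate without LinNeg replicate 2, the array with the higher neutrophil sum, was -0.78. Tlr2, Tlr4, Ly96 and Myd88 were measured in KSL at 73.1 and above, 38.4 and above, 49.3 and above, and 164 and above, and were not called against LinNeg.

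Monocyte against LinNeg gave 8 of 10 genes higher and 0 lower, against 30.2% of all genes. Tlr7 was higher by 3.45 ± 0.42 (adjusted p = 1.86e-06), Tlr2 by 2.90 ± 0.27 (adjusted p = 7.29e-08), Tlr4 by 2.43 ± 0.29 (adjusted p = 1.7e-06) and Cd14 by 2.42 ± 0.55 (adjusted p = 0.00137). Myd88, Ly96, Tlr6 and Tlr1 were higher by 1.92, 1.63, 1.60 and 1.55. Tlr3 and Tlr9 were the exceptions. The Cd14 call was lost without Monocyte replicate 2 (1.49, adjusted p = 0.0542). The median difference of the 10 genes was 1.78, against -0.06 over all genes tested.

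Erythroblast against LinNeg gave 4 of 10 genes lower and 0 higher, against 43.9% of all genes, a share close to the background. Cd14 differed by -2.41 ± 0.55 (adjusted p = 0.000994), Tlr1 by -1.67 ± 0.35 (adjusted p = 0.000418), Ly96 by -1.54 ± 0.48 (adjusted p = 0.0107) and Myd88 by -1.22 ± 0.29 (adjusted p = 0.00161). Erythroblast replicate 2 decided 2 of them. Without it Ly96 differed by -0.47 (adjusted p = 0.336) and Myd88 by -0.65 (adjusted p = 0.0575), and without Erythroblast replicate 1 Ly96 differed by -2.60. Myd88 was not called without LinNeg replicate 1 either (-0.97), nor under quantile normalization (-0.83).

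The other genes of the pathway were described from a list of 66 written by role with earlier results of these data known. Of these, 60 had a probe set of their own and 59 passed the filter. The F test called 52 of the 59, against 76.8% of all genes. In myeloid against lymphoid cells 14 of the 59 were higher and 10 lower, with a median difference of 0.01. Without the NK arrays 16 were higher and 11 lower, a repeat for which no share of all genes was computed. The 24 calls made with the NK arrays compare with the 29.7% of all genes given above.

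Of 4 further Toll-like receptors, Tlr13, which senses bacterial ribosomal RNA, and Tlr5, which senses flagellin, were higher in myeloid than in lymphoid cells. In this contrast 29.7% of all genes were called. Tlr13 measured 721 to 1101 in Neutrophil, 808 to 987 in NK and 263 to 439 in Monocyte, and at most 14.0 in B, CD4T, CD8T and NKT. Its myeloid difference was 4.29 ± 0.25 (adjusted p = 1.79e-11), and NK exceeded NKT by 5.96 ± 0.42 (adjusted p = 7.79e-09). Tlr5 measured 120.3 to 145 in Neutrophil and 35.04 to 60.2 in Monocyte, and Tlr8 and Tlr12 passed no test here. Like Tlr2, Tlr13 is thus high in the NK arrays, which carry the phagocyte lists.

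Of the relatives that handle lipopolysaccharide, Lbp, the serum protein that loads it onto Cd14, was 5.88 ± 0.32 higher in myeloid cells (adjusted p = 9.05e-12). Of the 4 genes of this role it alone was called in that contrast, against 29.7% of all genes. It measured 796 to 972 in Neutrophil, 746 to 1030 in Monocyte and 4.07 to 7.50 in NK. Lbp therefore parted Monocyte from NK (6.15 ± 0.54, adjusted p = 1.02e-07), where Tlr2, Tlr6 and Cd14 were not called. Cd180 and Ly86, a receptor and partner pair akin to Tlr4 and Ly96, were higher in B than in T cells, by 2.32 ± 0.36 and 6.86 ± 0.45. Cd36 was also higher in B, so 3 of the 4 genes were called, against 13.0% of all genes. Ly86 measured 2854 to 3063 in B and 15.9 to 21.5 in CD4T and CD8T.

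Of 8 genes for folding, transport and cleavage of the receptors, 4 were higher in B than in T cells and 6 were higher in NK than in NKT, where 13.0% and 11.3% of all genes were called. Unc93b1, which carries endosomal receptors from the endoplasmic reticulum, was 3.94 ± 0.26 higher in B (adjusted p = 9.25e-10), at 1056 to 1073 against 48.5 to 88.6 in T cells. Slc15a4, an endosomal transporter, was higher by 2.48 ± 0.22. Unc93b1 was highest in B cells, with NK next at 587 to 798, while Tlr7 was highest in NK. Of 4 further adaptors 1 was higher and 1 lower in myeloid cells, where 29.7% of all genes were called. Tirap, which brings Myd88 to Tlr2 and Tlr4, was 2.87 ± 0.16 higher (adjusted p = 1.29e-11). It measured 1392 to 1493 in Neutrophil and 65.2 to 119 in CD4T and CD8T. Sarm1 ran the other way, at 4.30 to 7.59 in Neutrophil and 4.74 to 5.55 in Monocyte. It measured 34.7 to 58.7 in CD4T and 34.2 to 43.2 in NKT, but 4.47 to 6.19 in NK. Pik3ap1, an adaptor that links to phosphoinositide 3-kinase, was 3.12 ± 0.23 higher in B than in T cells.

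Of the 13 kinases and ubiquitin ligases 2 were called in myeloid against lymphoid cells, against 29.7% of all genes, both lower: Peli1 (-1.24 ± 0.13) and Ikbkb (-1.04 ± 0.15). Ikbke, a kinase upstream of interferon regulatory factors, measured 524 to 807 in CD4T and CD8T and 2.94 to 7.81 in B. Its difference of B from T cells was -5.86 ± 0.39 (adjusted p = 7.64e-10). Of 8 transcription factors 3 were lower in myeloid cells (Irf8, Relb and Nfkb2). In Monocyte against B 5 were lower and 1 was higher, where 27.6% of all genes were called. Irf8, a factor of B cells and mononuclear phagocytes, measured 2643 to 2803 in B and 63.0 to 68.4 in Neutrophil.

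Of 10 negative regulators 4 were higher and 3 lower in myeloid cells, where 29.7% of all genes were called, 1703 higher and 2477 lower. Irak3, a kinase-like brake on Myd88 signalling, was 3.42 ± 0.25 higher (adjusted p = 4.97e-10), at 601 to 633 in Neutrophil and 532 to 548 in Monocyte. Sigirr, an inhibitory receptor of the family, was lower by a difference of -1.80 ± 0.18, and Socs1 by -2.05 ± 0.29. Of 8 tested cytokines and other induced genes 5 were higher and 1 lower in myeloid cells, against the same 29.7%. Cxcl2, which attracts neutrophils, measured 3492 to 5906 in Neutrophil, 1130 to 1927 in Monocyte and 18.2 to 57.1 in NK. Il1b, the precursor of interleukin-1β, measured 1805 to 2278 in Neutrophil and 778 to 890 in NK, and 465 to 743 in Monocyte.

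In the remaining contrasts the 59 genes gave 8 higher and 3 lower in Monocyte than in Neutrophil, 15 and 9 in Monocyte than in B, and 15 and 7 in B than in T cells, where 12.2%, 27.6% and 13.0% of all genes were called. NK against NKT gave 18 and 4 (11.3% of all genes) and Monocyte against NK 5 and 13 (19.6%). Monocyte against LinNeg gave 22 and 2 (30.2%) and Erythroblast against LinNeg 8 and 19 (43.9%). CD4T against CD8T gave 2 higher (3.21%), KSL against LinNeg 3 lower (5.53%) and NKT against the T cells 4 higher (3.36%). In CD4T against CD8T, KSL against LinNeg and Erythroblast against LinNeg the list's share was close to that of all genes. In Monocyte against B the median difference of the pathway list was -0.04, that of the 10 genes 0.51 and that of all genes tested -0.01.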

How the data were processed

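The deposited values are probe set intensities on a linear scale, 1 value per probe set and array; the software that made them is not given in the sources used here. Per the labels' protocols, RNA was extracted with ISOGEN and labelled after amplification in 2 cycles, which favours 3′ ends; the 3′ to 5′ ratio of Gapdh control probe sets ran from 2.36 to 6.10. The trimmed mean without 2% at each end averaged 100.001 over the 20 arrays, and array medians ran from 20.3 to 26.8. Samples were grouped by their titles.

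From these values log2(intensity + 6.75) was computed, the pseudocount being the 25th percentile. Of 45101 probe sets, 34945 had 1 gene symbol in the platform annotation, 932 several and 9160 none, and 64 were controls. Symbols were checked by Entrez number against RefSeq (GRCm38.p6), which changed 0. The brightest probe set of each of 18193 genes was kept, and the 14063 genes whose highest population mean lay above 4.89 (log2) were tested. All 20 arrays were fitted in 1 limma model (3.58.1, R 4.3.3) with 10 populations, eBayes with a trend, 10 residual and 8.46 prior degrees of freedom. Calls needed an adjusted p under 0.05 within the contrast and an absolute log2 difference of at least 1. The steps were tested on simulated data.

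The genes, marker lists and pathway list were chosen with earlier results of these data known. Named are the 10 genes, called genes of the pathway list (values for at most 3 a role, contrast and direction), the 3 genes most like each of the 10 over population means, passing over uncharacterised symbols, and sort markers. Of the alternatives, 10 contrasts and their settings were fixed first; the contrast of NKT with T cells and the repeat without NK were added after the values were seen.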

Additional observations from a re-analysis of the deposited data

How the results depend on the processing

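The 10 genes gave 42 calls over 11 contrasts, and these were recomputed under other pseudocounts, scalings, filters, probe set choices and fits, and without each array in turn. Of 661 recomputed values 596 were still called, 65 were not and 0 changed direction; 25 of the 42 calls held under every alternative run. The counts for the F test and for myeloid against lymphoid, Monocyte against B, NK against NKT and Monocyte against LinNeg stayed within 1.5 times in all of these. The causes of the following changes were not tested.

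With the pseudocount at the 5th percentile, the count of called genes was 1 in place of 2 for Monocyte against Neutrophil, 1 in place of 3 for Monocyte against NK and 1 in place of 2 for CD4T against CD8T. With the pseudocount at the median it was 1 for Monocyte against Neutrophil, 1 in place of 3 for B against T cells, 1 for CD4T against CD8T, 0 in place of 2 for KSL against LinNeg, 2 in place of 4 for Erythroblast against LinNeg and 1 in place of 2 for NKT against T cells. Averaging all probe sets of a gene gave 1 for Monocyte against NK, CD4T against CD8T, KSL against LinNeg and NKT against T cells alike. Array median centring gave 5 for B against T cells. For KSL against LinNeg, no filter gave 0 and no mean-variance trend gave 1.

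Leaving out 1 array at a time gave 1 to 2 called genes for Monocyte against Neutrophil, 1 to 3 for B against T cells, 1 to 2 for Monocyte against NK, 0 to 2 for CD4T against CD8T, 0 to 1 for KSL against LinNeg and 2 to 4 for Erythroblast against LinNeg. Centring moved the median of all genes by 0.13 in NK against NKT, and quantile normalization by 0.12 in Erythroblast against LinNeg.

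A replicate block left the count at 8 for the F test and at 2, 6 and 6 for Monocyte against Neutrophil, myeloid against lymphoid, and NK against NKT, and changed no other count. Deviations of same-numbered arrays correlated from -0.092 to 0.206 over 45 pairs of populations, 1 of them over 0.1. Such correlations cannot show whether same-numbered arrays shared animals or handling, and the labels give only a number. Signal near background limits Tlr3 and Tlr9 and the low end of Tlr1, Tlr4 and Tlr7.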
